A study of Homo sapiens with 4 samples.

Results

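The exons described here are 837 skipped exons of at least 76 and under 1000 nt whose exact start and end match no exon of the GENCODE release 29 annotation on their strand. They make up 2.14% of the 39120 distinct skipped exons that the deposited splicing tables list for both groups of the study. The study used MDA-LM2 cells, a lung-metastatic derivative of the human breast cancer line MDA-MB-231. Cells were transfected with the SSE mimetic, a mimetic RNA, or with a scrambled oligo, and their total RNA was sequenced, with 2 samples in each of the 2 groups. The samples of a group were deposited as 1 pooled read set, the labels do not say whether they came from separate cultures, and no spread between replicates can be given for any value below. Both groups had thus received transfected RNA, and the groups share 1 cell line.

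Membership was decided by coordinates and by read number, not by how an exon responded. Of 1711 distinct exons without an annotated counterpart, 383 lay outside the length range and 491 had fewer than 5 isoform-specific reads in the scrambled group. Isoform-specific reads are those that fit only the form with the exon (inclusion reads) or only the form without it (skipping reads). The 52 members with exactly 5 such reads had a median percent spliced in (Ψ) of 0.55, and the 74 exons left out with 4 reads had one of 0.425. Ψ is the share of transcripts that keep the exon, as estimated by the authors from inclusion reads, skipping reads and reads shared by both forms. The flanking exons assigned 826 members to 641 genes, and 751 members lay in protein-coding genes. A single member was found in 500 genes and several in 141 genes, with 7 in WASHC2C, 5 in GSN and 5 in NT5C2.

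The spliceosome recognises an exon by the 3' splice site in front of it, which ends in AG, and by the 5' splice site behind it, which begins with GT or less often with GC. Competing sites that lie close together give exons that differ by a few nucleotides. Sequences within introns that resemble both sites can be spliced in as cryptic or pseudoexons, which often carry stop codons. Annotations record the exons seen in curated transcripts, so an unannotated exon can be a shifted version of a known exon or a separate segment of an intron.

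The members whose bases are contained in GENCODE release 29 transcripts show these forms directly. The following 3 exons are shown because their 3' splice sites lie 4, 2 and 11 nt inside an annotated exon. All windows are in hg38 coordinates, read 5′ to 3′ on the gene's strand from GENCODE release 29 transcripts, with the AG before the exon and the GT after it in capitals. PAIP2 encodes a repressor of poly(A)-binding protein, NDUFA5 a subunit of respiratory complex I and RPL10 a protein of the large ribosomal subunit.
PAIP2, 176 nt exon, window chr5:139364566-139364749, plus strand: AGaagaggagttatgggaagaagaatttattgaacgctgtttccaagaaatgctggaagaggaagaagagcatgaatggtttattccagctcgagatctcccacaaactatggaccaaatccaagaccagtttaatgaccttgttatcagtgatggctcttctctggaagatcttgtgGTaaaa
NDUFA5, 115 nt exon, window chr7:123550464-123550586, minus strand: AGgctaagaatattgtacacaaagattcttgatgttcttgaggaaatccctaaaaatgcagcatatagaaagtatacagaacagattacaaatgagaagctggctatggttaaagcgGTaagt
RPL10, 152 nt exon, window chrX:154400455-154400632, plus strand: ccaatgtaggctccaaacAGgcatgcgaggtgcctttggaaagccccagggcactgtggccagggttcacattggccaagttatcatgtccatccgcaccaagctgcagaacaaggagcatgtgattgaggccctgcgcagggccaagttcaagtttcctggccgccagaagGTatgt

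The next pair is shown because its unannotated 5' splice sites begin with GC, which is in capitals. The NCEH1 exon, from a gene for a cholesteryl ester hydrolase, ended 10 nt before the annotated site and had the most isoform-specific reads of all members in the scrambled group. The SSR4 exon, from a gene for a subunit of the translocon-associated protein complex, ended 5 nt before an annotated site.
NCEH1, 219 nt exon, window chr3:172647890-172648114, minus strand: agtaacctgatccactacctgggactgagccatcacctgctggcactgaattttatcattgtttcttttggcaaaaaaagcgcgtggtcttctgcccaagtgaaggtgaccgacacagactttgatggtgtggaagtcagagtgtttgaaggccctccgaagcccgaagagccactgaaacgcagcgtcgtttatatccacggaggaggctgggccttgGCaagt
SSR4, 194 nt exon, window chrX:153795643-153795862, plus strand: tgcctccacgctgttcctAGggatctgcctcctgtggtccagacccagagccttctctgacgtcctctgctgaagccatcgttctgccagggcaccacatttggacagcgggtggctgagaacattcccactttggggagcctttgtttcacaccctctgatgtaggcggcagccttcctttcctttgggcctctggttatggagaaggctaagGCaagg

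The exon of OAZ1, the antizyme that targets ornithine decarboxylase for degradation, is shown because it was the only member called lower with the SSE mimetic. It joins an annotated 3' splice site to an annotated 5' splice site of another exon, contains a whole annotated intron, and holds a stop codon in the frame of the exon before it. The exon lies wholly inside a longer annotated exon, so the bases of that stop also occur in annotated transcripts. Whether the stop ends translation cannot be told from these data, and it does not mark the unannotated form. Its AG and GT are in capitals.
OAZ1, 140 nt exon, window chr19:2271371-2271536, plus strand: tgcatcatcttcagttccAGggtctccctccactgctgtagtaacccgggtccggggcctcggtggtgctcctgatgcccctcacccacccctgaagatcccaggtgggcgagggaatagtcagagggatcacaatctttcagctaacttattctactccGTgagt

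Most of the members were versions of known exons rather than separate segments. In 226 members only the 5' splice site was annotated, so that the 3' splice site had moved. In 189 members only the 3' splice site was annotated, and the 5' splice site had moved. Sites were matched to the ends of all annotated exons, first and last exons included, so some annotated sites may be transcript ends. Another 56 members combined annotated sites of different exons. With neither site annotated, 25 members overlapped an annotated exon and 341 overlapped none on their strand. The 341 exons without any overlap were shorter, at a median of 132 nt, than the members as a whole, at 155 nt. A total of 302 members lay wholly inside an annotated exon, 11 contained a whole annotated intron and 29 overlapped an annotated exon on the other strand. Members were not independent of each other, since 106 overlapped another member and 128 shared a skipping junction with one.

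Moved 3' splice sites lay closer to the nearest annotated exon end than moved 5' splice sites did. Ends of first and last exons were not set apart, so a distance can be to a transcript end rather than to a splice site. The median distance was 14.5 nt for the 226 moved 3' splice sites and 47.0 nt for the 189 moved 5' splice sites. Of the moved 3' splice sites, 17 lay 2 nt, 26 lay 3 nt and 23 lay 4 nt from the annotated site. The corresponding numbers for moved 5' splice sites were 5, 2 and 15. In 19 of the 26 exons with a 3 nt shift of the 3' splice site the unannotated exon was the shorter form. Shifts over 100 nt were found for 41 moved 3' splice sites and 64 moved 5' splice sites. Members with a moved 3' splice site were shorter than the nearest annotated exon in 126 cases and longer in 100, while those with a moved 5' splice site were shorter in 81 and longer in 108.

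**Figure D1:**
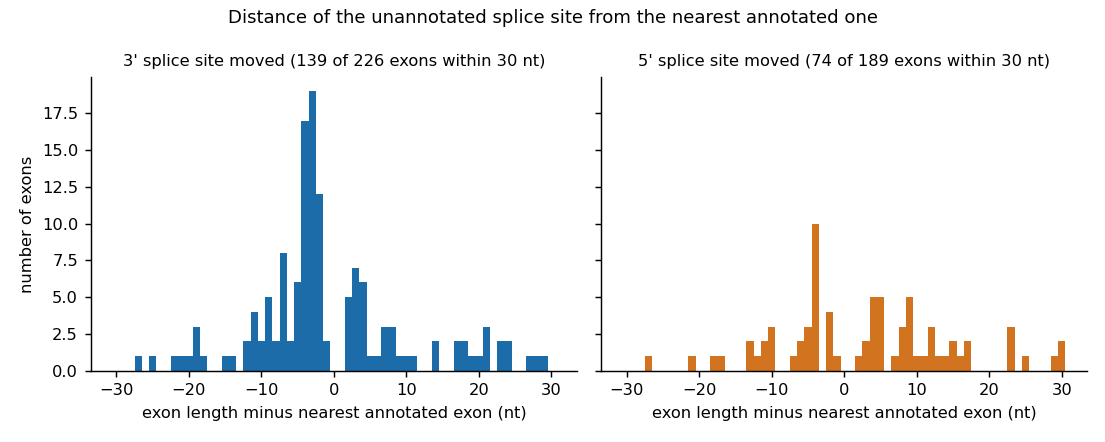
Number of exons (vertical axis) by exon length minus the length of the nearest annotated exon that shares the other splice site (horizontal axis, nt), for exons with a moved 3' splice site (left) and a moved 5' splice site (right), within 30 nt. The bars for moved 3' splice sites peak at exons 3 nt shorter (19 exons), and those for moved 5' splice sites at exons 4 nt shorter (10 exons).

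Where the bases could be read, most ends of the members carried splice-site bases. Every covered end was counted, annotated or not, so the shares below do not describe the unannotated ends alone. AG preceded 241 of 243 members whose preceding bases were covered by an annotated transcript (99.2%), against 99.8% of 5311 annotated skipped exons of the same length range and read minimum. GT followed 182 of 206 members (88.3%), against 97.1% of 4841 annotated exons. GC followed 22 of 206 members (10.7%) and 2.66% of the annotated exons, and 2 members had other bases. The 18 bases in front of the AG had a median pyrimidine content of 72.2% in 171 members and in the annotated exons alike. Coverage by a transcript favours members inside or next to known exons, so these shares do not describe the 341 exons without overlap, and the shares were not tested against each other.

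Members that could be examined were less often able to extend a reading frame than annotated exons. Of 512 members with coding flanking exons, 34.2% had a length divisible by 3, against 41.9% of annotated exons. An in-frame stop codon was present in 121 of 194 members with coding flanks, a known frame and covered bases (62.4%), against 31.9% of 14316 annotated exons. Only 30 of the 194 (15.5%) combined a length divisible by 3 with the absence of a stop, against 31.8% of annotated exons. Members with a stop had a median Ψ of 0.57 in the scrambled group (n = 121) and those without a stop one of 0.72 (n = 73). These are descriptions of exons that partly share genes and reads, with no test. The stop codon shares rest on members covered by an annotated transcript, which favours those inside or next to known exons, and do not describe the members without overlap.

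In the scrambled group, members were included less than annotated exons. Their median Ψ was 0.44, with quartiles of 0.15 and 0.78, against 0.74 for the 19086 annotated skipped exons of the same length range and read minimum. Ψ was below 0.1 for 155 members (18.5%) and at least 0.9 for 91 members (10.9%). The corresponding shares of annotated exons were 12.8% and 24.2%. With the SSE mimetic the medians lay closer together, at 0.54 for members and 0.64 for annotated exons. The median width of the 95% credible interval was 0.56 with the SSE mimetic and 0.32 in the scrambled group, at medians of 6 and 17 isoform-specific reads per member.

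Median Ψ differed with the relation to the annotation. The 341 exons that overlapped no annotated exon had the lowest median Ψ in the scrambled group, 0.24, and 101 of them (29.6%) lay below 0.1. The median was 0.61 for moved 3' splice sites, 0.62 for moved 5' splice sites and 0.77 for new pairings of annotated sites. The 25 exons that overlapped a known exon with neither site annotated had a median of 0.35. Only 10 of the 341 exons without overlap (2.93%) reached 0.9, against 45 of the 226 with a moved 3' splice site (19.9%). Where a member overlaps an annotated exon, reads of that exon in the shared bases can count as its inclusion reads. The 341 exons without overlap share no such bases on their strand. The part of these reads in the medians was not tested.

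**Figure D2:**
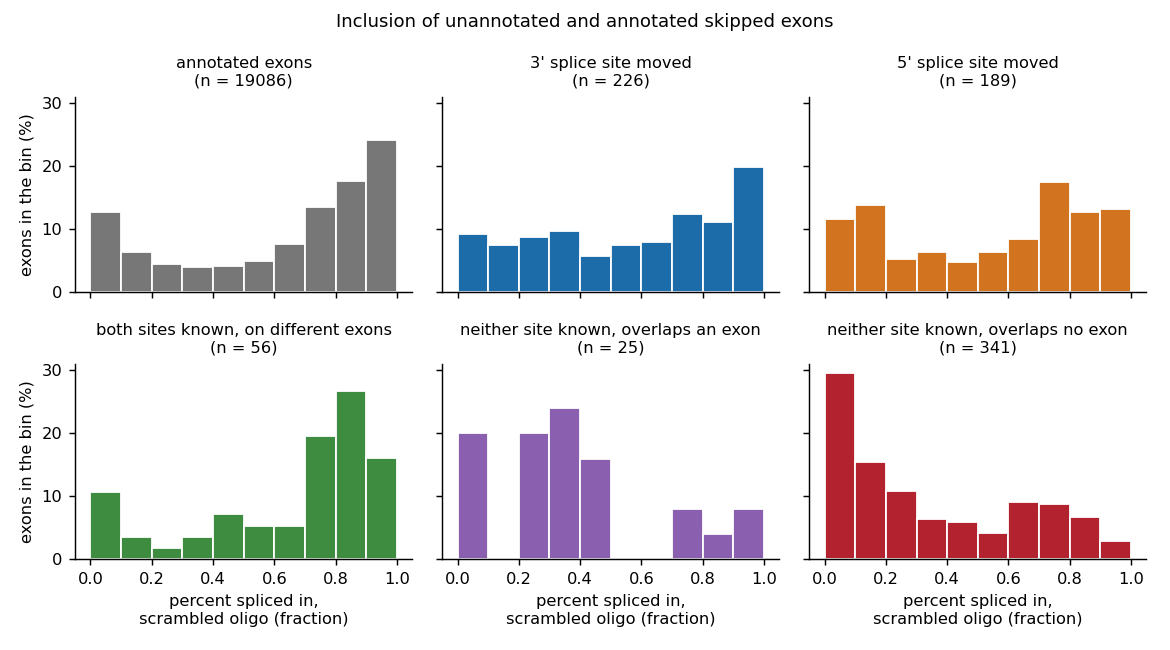
Share of exons (vertical axis, %) in each 0.1 of the Ψ range in the scrambled group (horizontal axis, fraction) for annotated exons and for the 5 kinds of unannotated exons. Annotated exons and exons with a moved 3' splice site pile up at the right end, and exons that overlap no annotated exon pile up at the left end, with 29.6% below 0.1.

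Of the 10 genes with the best-covered members, some had exons with a high Ψ and others had exons with a very low Ψ. The first kind included shorter forms of annotated exons in NCEH1, PAIP2, CCNI and GPX8. The NCEH1 exon of 219 nt had 668 inclusion reads and 1 skipping read in the scrambled group, and 227 and 0 with the SSE mimetic, with a Ψ of 0.99 (0.98 to 1.00) and 0.99 (0.97 to 1.00). The PAIP2 exon of 176 nt, which also overlaps an annotated exon on the other strand, had 623 and 76 inclusion reads and no skipping read in either group. Its Ψ was 1.00 (0.99 to 1.00) in the scrambled group and 0.97 (0.91 to 1.00) with the SSE mimetic. An exon of 152 nt in CCNI, the cyclin I gene, had 535 and 133 inclusion reads and a Ψ of 0.99 and 0.98. The GPX8 exon of 252 nt, from a gene for an endoplasmic reticulum peroxidase, had 532 and 78 inclusion reads and a Ψ of 0.99 and 0.98. In all 4 exons the credible intervals of the groups overlapped. All 4 lie wholly inside an annotated exon, and reads of the longer form within the shared bases can count as inclusion reads. Their Ψ is thus not a measure of how often the unannotated site was used. UBE2V1, which encodes a partner of ubiquitin-conjugating enzymes, and RPL10 each had a similar exon, with Ψ of 0.97 and 0.94 and of 1.00 and 0.98. Both genes have near-identical copies in the genome, so their read numbers are uncertain.

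Many members had annotated partners with nearly the same Ψ. For 261 members the tables also list an annotated exon that shares one of the splice sites and the flanks, and in 71 of these pairs both exons reached 10 isoform-specific reads per group. Partners share the skipping junction and so its reads by definition. In the scrambled group 58 of the 71 pairs differed by at most 0.05 in Ψ. The unannotated exon had more inclusion reads than its annotated partner in 12 of the 71 pairs. In PAIP2 the annotated exon of 180 nt had 763 inclusion reads in the scrambled group, against 623 for the unannotated form 4 nt shorter. In NDUFA5 the annotated exon of 117 nt had 238 and the form 2 nt shorter had 136. A read inside the bases that both forms share fits either of them, and the deposited read numbers do not separate junction reads from reads within the exon. The part of such reads in Ψ was not tested.

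Some exons without an annotated exon on their strand were also well covered. An exon of 344 nt in PCNP, a gene for a nuclear protein rich in PEST motifs, overlapped no annotated exon on its strand (chr3:101576451-101576794, plus strand). It did overlap one on the other strand, and reads from the opposite strand cannot be told apart here. It had 465 inclusion and 9 skipping reads in the scrambled group and 150 and 0 with the SSE mimetic. Its Ψ was 0.93 (0.88 to 0.96) and 0.98 (0.93 to 1.00), and its reads per nucleotide were 8.0 and 8.1 times those of the flanking introns. Its Ψ was high in both groups, and the credible intervals overlapped.

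Other such exons were almost never kept. In SAP18, a gene for a protein of the Sin3 deacetylase and exon junction complexes, an exon of 193 nt had 16 inclusion and 451 skipping reads in the scrambled group. With the SSE mimetic it had 5 and 66, and its Ψ was 0.01 and 0.03. An exon of 168 nt in KIAA0100 had 2 inclusion reads against 514 skipping reads, and 1 against 50 with the SSE mimetic. An exon of 94 nt in IFRD1, a gene for a transcriptional co-regulator, had no inclusion read beside 458 skipping reads in the scrambled group. That count of 0 allows an inclusion share of up to 0.655% of isoform-specific reads, for counting error only. In all, 36 members had no inclusion read in the scrambled group, so their presence in the tables rests on skipping reads.

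Reads over members were set against reads over their introns. For each exon, inclusion reads per 100 nt of exon were divided by reads that fit neither form per 100 nt of both flanking introns, which can hold reads of unspliced RNA and of other exons. Over all members with a value the median ratio was 0.746 in the scrambled group and 0.536 with the SSE mimetic, against 1.19 and 0.724 for annotated exons. It was under 1 for 62.7% and 75.9% of members. Among the 252 members with 10 or more isoform-specific reads per group, the median ratio was 1.11 in the scrambled group and 0.987 with the SSE mimetic. The corresponding ratios for tested annotated exons were 3.06 and 1.86. A ratio of at least 2 was reached by 65 of 252 such members in the scrambled group (25.8%) and by 45 with the SSE mimetic (17.9%), against 60.4% and 46.4% of annotated exons. Over all members the scrambled group had 3.0 times as many inclusion reads and 6.79 times as many skipping reads as the SSE mimetic group, but 1.51 times as many reads of neither form. Over all 39120 exons, which had no read minimum, the corresponding ratios were 4.48, 7.0 and 1.53. Membership required a minimum of inclusion and skipping reads together in the scrambled group, and its effect on the ratios of the members was not tested. The part of these read numbers in the differences of Ψ was not tested.

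**Figure D3:**
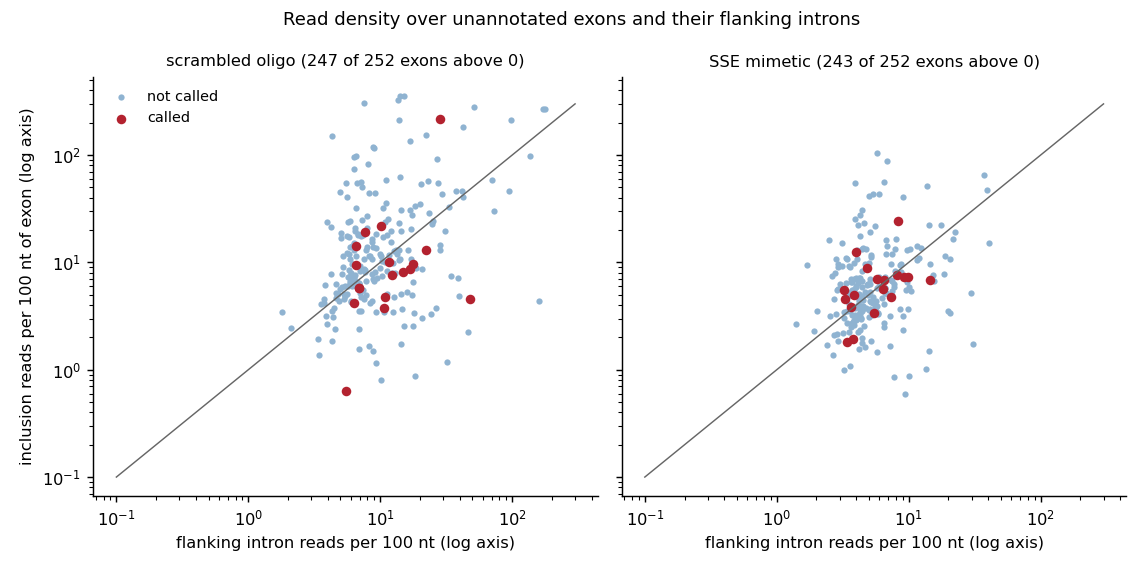
Inclusion reads per 100 nt of exon (vertical log axis) against reads fitting neither form per 100 nt of flanking intron (horizontal log axis) for tested unannotated exons with values above 0, in the scrambled group (left) and the SSE mimetic group (right). The line marks equal density, and red points are the exons called between the groups. Points scatter around the line, with median ratios of 1.11 and 0.987.

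The comparison of the groups asks whether the SSE mimetic alters exon inclusion. Testing required a minimum of 10 isoform-specific reads per group, which 252 of the 837 members reached. Of the 585 others, 348 fell short with the SSE mimetic alone, 9 in the scrambled group alone and 228 in both. Calls were made at a Bayes factor of 10 or more, as given in the authors' deposited table, together with a change in Ψ of 0.1 or more. By this rule 18 of 252 members were called (7.14%), 17 higher and 1 lower with the SSE mimetic, and 234 were not. Of all 8228 exons tested, 328 were called (3.99%), 255 higher (3.1%) and 73 lower (0.887%). Among 6803 tested annotated exons of the same length range the share was 3.87%. In a two-sided Fisher's exact test of inclusion and skipping reads, with Benjamini-Hochberg adjustment over all tested exons, 6 of 252 members passed at 0.05 (2.38%), against 1.01% of all tested exons (83). All 6 had the larger inclusion share with the SSE mimetic. An unadjusted p under 0.05 was found for 34 of the 252 tested members and for 453 of all 8228 tested exons. That test compares the pooled libraries, not the conditions, and 105 tested members had no skipping read in either group and could not pass it.

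Differences followed the starting level of inclusion. Of 42 tested members with a Ψ below 0.1 in the scrambled group, 4 were called higher, and of 62 between 0.1 and 0.5, 13 were. None of the 83 members between 0.5 and 0.9 was called by the Bayes factor rule, and 1 of 65 at or above 0.9 was called lower. The median difference was 0.075, 0.275, 0.02 and -0.06 in these 4 ranges. Annotated exons showed the same order, with medians of 0.04, 0.19, -0.01 and -0.07. Of 725 annotated exons below 0.1, 63 were called higher, and of 734 between 0.1 and 0.5, 131 were called higher and 7 lower. Of 2003 between 0.5 and 0.9, 10 were called higher and 15 lower, and 37 of 3341 at or above 0.9 were called lower. Ψ in the scrambled group was under 0.5 in 104 of 252 tested members and in 1459 of 6803 tested annotated exons. Under 0.5, 16.3% of these members and 13.8% of these annotated exons were called in either direction. The shares were 0.0% and 1.25% between 0.5 and 0.9, and 1.54% and 1.11% at or above 0.9. Over all tested members the median difference in the authors' deposited table was 0.025 (quartiles -0.04 and 0.15), with 139 above 0, 107 below and 6 at 0. It was -0.03 over all tested exons. A Ψ near 0 can move only upwards and one near 1 only downwards. The ranges were set by the same scrambled Ψ that enters the difference, so the 2 are not independent. The median difference in the share of inclusion reads was 0.116 for members under 0.5. It was 0.0 both between 0.5 and 0.9 and at or above 0.9. The part of counting error in this order was not tested.

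**Figure D4:**
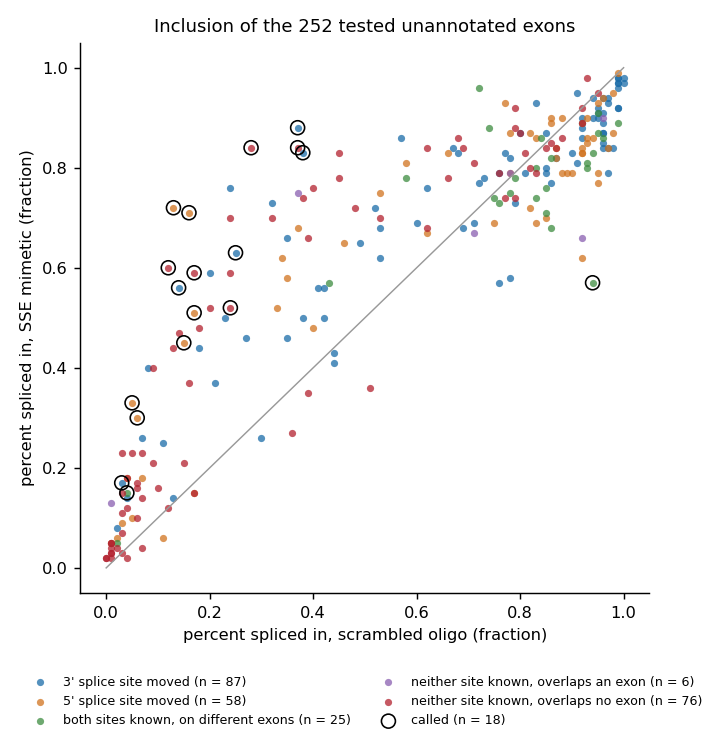
Ψ with the SSE mimetic (vertical axis, fraction) against Ψ in the scrambled group (horizontal axis, fraction) for the 252 tested unannotated exons, coloured by their relation to the annotation, with circles around the 18 called exons and a line of equal values. Points lie above the line at the left and mostly below it at the far right, and 17 of the 18 circles are above it.

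The called exons came from each kind except the exons that overlap a known one with neither site annotated, of which 6 were tested. Moved 5' splice sites gave 6 called exons of 58 tested, moved 3' splice sites 5 of 87, exons without overlap 5 of 76 and new pairings of sites 2 of 25. Of the members whose moved site lay within 12 nt of the annotated one, 1 of 56 was called, and of those with larger shifts 10 of 89 were. The difference between these shares was not tested. Members with a shift within 12 nt had a median Ψ of 0.805 in the scrambled group, and those with larger shifts one of 0.78. Of the 7 called members with an annotated partner in the tables, none had a partner that was called. A partner under the read minimum could not be called. In DCTD and MCM3, described below, the annotated exon had a similar Ψ to the member in each group, so the missing call does not set the 2 forms apart.

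The 5 called exons that overlap no annotated exon lay in introns of CARD8, GLUD1, SERPINB1, ZNF131 and CYTH3. CARD8 encodes a sensor that can form an inflammasome. Its exon of 307 nt (chr19:48246075-48246381, minus strand) had 44 inclusion and 32 skipping reads in the scrambled group and 17 and 0 with the SSE mimetic, where a count of 0 allows up to 17.6% of skipping reads. Ψ was 0.28 (0.19 to 0.38) and 0.84 (0.49 to 1.00), a difference of 0.56 with a Bayes factor of 40.4 in the authors' deposited table. The Fisher's exact test gave an adjusted p of 0.0456. The intervals did not meet, and the inclusion reads exceeded the density of the flanking introns by 2.2 times in the scrambled group and 1.72 times with the SSE mimetic.

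A CARD8 exon of 611 nt between the same flanking exons was also called, with the same 32 skipping reads. It extends an annotated exon by 506 nt and was chosen for mention after its values were seen. Its Ψ was 0.71 (0.29 to 0.94) with the SSE mimetic and 0.16 (0.10 to 0.23) in the scrambled group, with 11 and 35 inclusion reads. Its adjusted p in the Fisher's exact test was 0.116. The inclusion reads lay below the density of the flanking introns in both groups, at 0.525 and 0.833 times.

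GLUD1 encodes mitochondrial glutamate dehydrogenase, which feeds glutamate carbon into the citric acid cycle. Its exon of 227 nt (chr10:87089562-87089788, minus strand) had 23 inclusion and 49 skipping reads in the scrambled group and 16 and 3 with the SSE mimetic. Ψ was 0.17 (0.11 to 0.25) and 0.59 (0.37 to 0.81), and the adjusted p of the Fisher's exact test was 0.0107. The share of inclusion reads was 0.319 in the scrambled library and 0.842 with the SSE mimetic, and the exon's read density was 0.863 and 1.22 times that of its introns. Related copies of GLUD1 in the genome make the read numbers uncertain.

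SERPINB1, an inhibitor of neutrophil serine proteases, had a called exon of 132 nt (chr6:2839335-2839466, minus strand). It had 5 inclusion and 17 skipping reads in the scrambled group and 10 and 1 with the SSE mimetic. Ψ was 0.12 (0.04 to 0.24) and 0.60 (0.31 to 0.87), and the adjusted p of the Fisher's exact test was 0.0469. Inclusion reads were at or below the density of the flanking introns in both groups, at 0.354 and 0.932 times, and subtraction of that density left a difference in inclusion share of 0.0. In this and later subtractions a negative remainder was set to 0, so reads below the density in both groups give 0.0 by construction. The SERPINB1 exon had the smallest read numbers among the members that passed the Fisher's exact test.

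ZNF131, a zinc finger transcription factor of the BTB family, had the most reads among the called exons without overlap. Its exon of 537 nt (chr5:43136669-43137205, plus strand) had 118 inclusion and 50 skipping reads in the scrambled group and 48 and 3 with the SSE mimetic. Ψ was 0.24 (0.19 to 0.29) and 0.52 (0.34 to 0.76), and the adjusted p was 0.0368 in the Fisher's exact test. Its read density was 2.16 and 1.87 times that of its introns.

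CYTH3 encodes an exchange factor for ARF GTPases. Its exon of 223 nt (chr7:6174190-6174412, minus strand) had 13 inclusion and 5 skipping reads in the scrambled group and 11 and 0 with the SSE mimetic. Ψ was 0.37 (0.20 to 0.60) and 0.84 (0.60 to 0.98), so that the intervals touched at 0.60. The Fisher's exact test gave an unadjusted p of 0.126, and the exon is called by the Bayes factor alone.

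**Figure D5:**
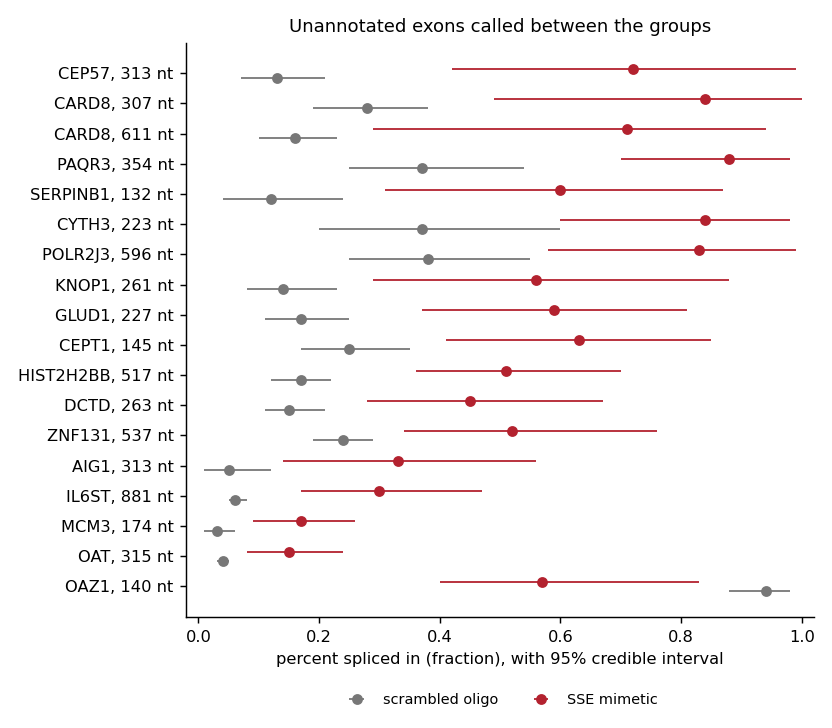
Ψ (horizontal axis, fraction) with its 95% credible interval in the scrambled group (grey) and the SSE mimetic group (red) for the 18 called unannotated exons, 1 per line, ordered by the difference and labelled by gene and exon length. In 17 exons the red point lies to the right, and in OAZ1 it lies to the left, at 0.57 against 0.94.

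Called exons with a moved 5' splice site included long extensions of known exons. IL6ST encodes gp130, the shared signalling receptor of the interleukin-6 family, and its exon of 881 nt extends an annotated exon by 796 nt into the intron. It had 71 inclusion and 60 skipping reads in the scrambled group and 30 and 4 with the SSE mimetic. Ψ was 0.06 (0.05 to 0.08) and 0.30 (0.17 to 0.47), with an adjusted p of 0.0362 in the Fisher's exact test. Its reads lay below the density of the introns in both groups, at 0.544 and 0.621 times, and the difference in inclusion share was 0.0 after subtraction.

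CEP57 encodes a centrosomal protein, and its exon of 313 nt (chr11:95794221-95794533, plus strand) is 174 nt longer than the annotated one. It had the largest difference of all called members, with a Ψ of 0.13 (0.07 to 0.21) in the scrambled group and 0.72 (0.42 to 0.99) with the SSE mimetic. Both groups had 15 inclusion reads, with 2 and 0 skipping reads, while shared reads numbered 137 in the scrambled group and 23 with the SSE mimetic. The difference in the share of inclusion reads was 0.118, and the Fisher's exact test gave an unadjusted p of 0.486. The density of inclusion reads was 0.443 and 0.65 times that of the introns.

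DCTD, the deoxycytidylate deaminase gene, had the only called exon with a shift within 12 nt. The exon of 263 nt is 9 nt longer than the annotated one of 254 nt. Ψ was 0.15 (0.11 to 0.21) in the scrambled group and 0.45 (0.28 to 0.67) with the SSE mimetic, from 34 inclusion and 34 skipping reads and from 18 and 3. The annotated exon had 33 and 16 inclusion reads and a Ψ of 0.15 and 0.40, and was not called. The adjusted p of the unannotated exon in the Fisher's exact test was 0.197, and its reads lay at 0.58 and 1.06 times the intron density.

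AIG1, a gene for a hydrolase of fatty acid esters, had an exon of 313 nt that extends an annotated one by 295 nt. Ψ was 0.05 (0.01 to 0.12) in the scrambled group, from 2 inclusion and 35 skipping reads, and 0.33 (0.14 to 0.56) with the SSE mimetic, from 6 and 7. The adjusted p in the Fisher's exact test was 0.121, the reads lay at 0.116 and 0.508 times the intron density, and subtraction left a difference of 0.0 in inclusion share. An exon of 517 nt assigned to the histone pseudogene HIST2H2BB had a Ψ of 0.17 (0.12 to 0.22) and 0.51 (0.36 to 0.70). It had 45 and 38 inclusion reads and no skipping read in either group, and it lies in a duplicated region, so that its reads are uncertain. It also lies wholly inside a longer annotated exon, whose reads in the shared bases can count as inclusion reads. AIG1 and IL6ST were chosen for mention after their values were seen.

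Among called exons with a moved 3' splice site, CEPT1 had reads of both forms in both groups. CEPT1 encodes a phosphotransferase that makes phosphatidylcholine and phosphatidylethanolamine, and its exon of 145 nt (chr1:111173114-111173258, plus strand) is 24 nt longer than the annotated one. It had 28 inclusion and 30 skipping reads in the scrambled group and 18 and 3 with the SSE mimetic. Ψ was 0.25 (0.17 to 0.35) and 0.63 (0.41 to 0.85), and the read density was 2.52 and 3.11 times that of the introns. The adjusted p in the Fisher's exact test was 0.168. It was the only member called higher whose density ratio was at least 2 in both groups.

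MCM3, a subunit of the replicative helicase, had an exon of 174 nt that is 23 nt longer than the annotated one and was chosen for mention after its values were seen. Ψ was 0.03 (0.01 to 0.06) in the scrambled group and 0.17 (0.09 to 0.26) with the SSE mimetic. It had 8 inclusion and 36 skipping reads and then 12 and 11, with an adjusted p of 0.219 in the Fisher's exact test. Inclusion reads lay at 0.0952 and 0.471 times the intron density, and the difference in inclusion share was 0.0 after subtraction of that density. The annotated exon of 151 nt had a Ψ of 0.04 and 0.17 and inclusion reads of 8 and 11.

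The other 3 called exons with a moved 3' splice site had few skipping reads. PAQR3, which encodes a Golgi protein that holds RAF kinases, had an exon of 354 nt with a Ψ of 0.37 (0.25 to 0.54) and 0.88 (0.70 to 0.98). It had 27 and 20 inclusion reads and no skipping read in either group, beside 603 and 101 shared reads. POLR2J3, which encodes a copy of an RNA polymerase II subunit and has near-identical paralogs, had an exon of 596 nt with 57 and 44 inclusion reads and 1 and 0 skipping reads. Its Ψ was 0.38 (0.25 to 0.55) and 0.83 (0.58 to 0.99). KNOP1, a nucleolar protein gene, had an exon of 261 nt with 11 and 12 inclusion reads and 2 and 1 skipping reads. Its Ψ was 0.14 (0.08 to 0.23) and 0.56 (0.29 to 0.88). The KNOP1 exon lies wholly inside a longer annotated exon, whose reads in the shared bases can count as inclusion reads. In these 3 exons inclusion reads were nearly as many with the SSE mimetic as in the scrambled group, while shared reads were fewer with the SSE mimetic. None of the 3 had an unadjusted p under 1.0 in the Fisher's exact test.

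New pairings of annotated sites gave a called exon in each direction. OAT encodes ornithine aminotransferase, and its exon of 315 nt, chosen for mention after its values were seen, had a Ψ of 0.04 (0.03 to 0.05) in the scrambled group and 0.15 (0.08 to 0.24) with the SSE mimetic. It had 30 inclusion and 62 skipping reads and then 12 and 8, with an adjusted p of 0.789 in the Fisher's exact test. The OAT exon lies wholly inside a longer annotated exon, whose reads in the shared bases can count as inclusion reads. Once the read density of the introns was subtracted, the difference in inclusion share was -0.0815, the other direction. The OAZ1 exon of 140 nt (chr19:2271391-2271530, plus strand), whose sequence is shown above, had a Ψ of 0.94 (0.88 to 0.98) in the scrambled group and 0.57 (0.40 to 0.83) with the SSE mimetic. The difference was -0.37 with a Bayes factor of 26.9 in the authors' deposited table. It had 306 inclusion and 4 skipping reads in the scrambled group and 34 and 0 with the SSE mimetic, beside 509 and 142 shared reads. The share of inclusion reads thus moved by 0.0129 in the other direction, and the Fisher's exact test gave an unadjusted p of 1.0.

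Inclusion reads and Ψ did not carry the same weight in all called exons. Of the 17 called higher, 15 had a larger share of inclusion reads with the SSE mimetic and 2 had equal shares. The share was larger by at least 0.1 in 13 of them. In 7 of the 17 no skipping read was seen with the SSE mimetic, and the credible intervals were apart in 16. Summed over the 17 exons, the scrambled group had 1.67 times as many inclusion reads, 10.2 times as many skipping reads and 4.29 times as many shared reads as the SSE mimetic group. For reads that fit neither form it had 1.92 times as many. Inclusion reads were at or below the number that the density of the flanking introns gives in 13 of the 17 in the scrambled group and in 9 with the SSE mimetic. Whether reads of unspliced RNA account for part of the differences was not tested.

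BCL2L1 passed the Fisher's exact test without being called. The gene encodes the long, anti-apoptotic BCL-xL and the short, pro-apoptotic BCL-xS, and the exon of 157 nt (chr20:31666991-31667147, minus strand) overlaps no annotated exon. It had 8 inclusion and 73 skipping reads in the scrambled group and 9 and 7 with the SSE mimetic. Ψ was 0.03 (0.01 to 0.05) and 0.11 (0.05 to 0.19), a difference of 0.08 that missed the threshold of 0.1, with a Bayes factor of 4.52 in the authors' deposited table. The adjusted p was 0.0188, and inclusion reads lay at 0.354 and 0.873 times the density of the introns, with a difference in inclusion share of 0.0 after subtraction.

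Several well-covered members with long exons had high Ψ without skipping reads in both groups. An exon of 689 nt in RXFP1, the relaxin receptor gene, pairs annotated sites of different exons and had a Ψ of 0.95 (0.85 to 0.99) in the scrambled group and 0.91 (0.72 to 1.00) with the SSE mimetic. It had 74 and 46 inclusion reads at 1.81 and 1.51 times the intron density. An exon of 840 nt in the pseudogene CCDC144CP, which belongs to a family of near-identical copies, had 259 and 113 inclusion reads and a Ψ of 0.96 and 0.89. An exon of 808 nt in AC022400.3 had 231 and 85 inclusion reads, a Ψ of 0.96 and 0.90, and densities of 1.22 and 0.902 times those of its introns. The intervals of the groups overlapped in each of the 3.

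Other named members did not pass either test. AURKB encodes the mitotic kinase Aurora B, and its exon of 149 nt had 397 and 71 inclusion reads and no skipping read, with a Ψ of 0.99 (0.96 to 1.00) in the scrambled group and 0.89 (0.75 to 0.98) with the SSE mimetic. COA1, a mitochondrial assembly factor gene, had an exon of 599 nt with a Ψ of 0.92 (0.77 to 0.99) and 0.66 (0.49 to 0.83) and a Bayes factor of 3.85 in the authors' deposited table. The AURKB and COA1 exons each lie wholly inside a longer annotated exon, whose reads in the shared bases can count as inclusion reads. HINT1, a nucleotide hydrolase gene, had an exon of 449 nt, 82 nt longer than the annotated one, with 89 inclusion and 79 skipping reads in the scrambled group and 30 and 29 with the SSE mimetic. Its Ψ was 0.05 (0.04 to 0.06) and 0.10 (0.07 to 0.14). Those intervals did not meet, although the share of inclusion reads moved by -0.0213.

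Genes with several members held exons of unlike inclusion. The 7 exons of WASHC2C, a subunit of the endosomal WASH complex with a near-identical paralog, ranged in Ψ from 0.01 to 0.92 in the scrambled group, and 4 were tested without a call. In GSN, the gene of the actin-severing protein gelsolin, the 5 exons ranged from 0.07 to 0.94, and 2 were tested. In NT5C2, a cytosolic nucleotidase gene, they ranged from 0.10 to 0.44, and 2 were tested. None of these exons was called, and overlapping exons of a gene share reads.

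Members were spread over gene groups with few tested exons in each. Of 58 members in zinc finger genes, 9 were tested, with 1 called higher (ZNF131) and a median difference of 0.11. Of 14 in the cell cycle and mitosis list, 6 were tested and 2 called higher. These were CEP57 and CEPT1, and CEPT1 belongs to the list only because its symbol begins with the letters of the centrosomal CEP genes. The membrane traffic list had 19 members, 5 of them tested, and the ubiquitin and proteasome list 16 with 8 tested, and none was called. Cytoskeleton and adhesion had 10 members with 4 tested, a median difference of -0.105 and no call. Translation and ribosome had 13 with 4 tested, and chromatin and transcription regulators 10 with 3 tested, none called. Splicing regulators had 4 members with 3 tested and the core spliceosome 2 with 1 tested, none called. In programmed cell death 3 of 7 members were tested, none was called and BCL2L1 passed the Fisher's exact test. DNA repair had 4 members with 2 tested and RNA sensing and the interferon response 4 with 2 tested, none called. These counts stand beside the 3.99% called over all tested exons, and with so few tested exons they give no rate for a group.

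The tables list splicing events, not gene expression, and give only partial evidence on the identity of the cells. Of 8 marker genes of mesenchymal breast cancer cells, 5 had a listed exon, with 173 to 39589 isoform-specific reads in the scrambled group, the most in CD44. VIM, CAV1 and MSN had none listed. Of 8 luminal or epithelial genes, 6 had a listed exon with 19 to 1521 reads, and of 10 markers of other cell types 4 had one with 29 to 91 reads. No member lay in a gene of the last list.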

How the data were processed

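RNA of 4 samples, 2 per group, was sequenced, and the deposited tables hold skipped-exon results of MISO, per the file headers, with 1 pooled summary per group and 1 comparison. Reads were aligned with STAR 2.7 to hg38, per the submitters' processing notes. Sources used here do not name the MISO version, its event set or the way of pooling. Ψ is deposited as a fraction, with the bounds of its 95% credible interval. The authors' Bayes factor is a ratio, and the deposited difference is a signed score, SSE mimetic minus scrambled. The authors' read numbers per event were parsed from text into inclusion, skipping, shared and neither reads. They are counts of read sets, not normalised, and as the labels name no molecular identifiers, all intervals cover counting error only.

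The summaries list 46629 and 47968 events, 45977 in both. Events with the same skipped exon were reduced to the one with the most isoform-specific reads, leaving 39120 exons, which were compared with GENCODE release 29 exons by coordinate and strand. Exons with 10 or more isoform-specific reads per group were tested, and called at a Bayes factor of at least 10 and a difference of at least 0.1. Fisher's exact tests (scipy 1.17.1, Python 3.11.15, pandas 2.3.3) were adjusted over all 8228 tested exons and tested on simulated data. Named exons were the called exons up to 12 per direction, the 10 with the most reads, 2 per kind, and exons of 13 gene lists that passed either test, 1 per gene, which gave 30. A further 5 were chosen after their values were seen. The members and lists were chosen with earlier results of these data known. No genome sequence was used here, so bases were read from annotated transcripts that cover the exon, splice sites were not scored, and called intronic exons are given without sequence. The alternatives were other thresholds, read minimums, event choices, Fisher's exact test, and inclusion shares with and without subtraction of the intron density.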

Additional observations from a re-analysis of the deposited data

How the results depend on the processing

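The 18 calls (17 higher, 1 lower) stayed within 1.5 times under a difference of 0.2 (16), credible intervals that must not meet (17), events chosen by all reads (18), 20 isoform-specific reads in the scrambled group (15) and, chosen after seeing the data, 1 member per skipping junction (17). A Bayes factor of 100 left 6 calls, all 6 higher and 0 lower. Fisher's exact test with a difference of 0.1 left 5, with 5 higher and 0 lower, and 34 members had an unadjusted p under 0.05. A minimum of 20 isoform-specific reads per group left 97 tested exons and 10 calls, 9 of them higher. With 5 reads there were 24 calls, 3 of them lower. The inclusion share in place of Ψ left 13 calls, with 0 lower. Exons with neither splice site annotated held 5 calls, 5 higher and 0 lower. Of alternatives chosen after seeing the data, a skipping read in each group left 10 calls of 88 tested, 10 higher and 0 lower. An inclusion density of at least 2 times the intron density in each group left 2 calls of 41 tested, 1 higher and 1 lower. Fewer exons were tested in these 2 alternatives, and the cause of the other changes was not tested.

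The median difference of 0.025 was 0.0 with 20 reads per group and with inclusion shares, and 0.1 over the 88 exons with a skipping read in each group. The median Ψ of 0.44 in the scrambled group was 0.42 with at least 20 reads. In OAZ1 the difference of -0.37 became 0.0129 as an inclusion share and 0.0148 after subtraction of the intron density, and in OAT 0.11 became -0.0815 after subtraction. Of the 17 exons called higher, subtraction left a value in 12, of which 7 were above 0, 4 at 0 and 1 below, and left no inclusion or skipping read in a group in 5. Inclusion reads below the subtracted number were set to 0. The 4 values at 0 follow from this, since both groups were set to 0. In GLUD1, CYTH3, KNOP1 and DCTD, among the 7 above 0, the scrambled group alone was set to 0. No paired analysis was possible because each group was deposited as 1 pooled read set, and for the same reason no sample could be left out. Untested members past both thresholds numbered 10 (8 higher, 2 lower). Depth limits the comparison, since 585 members had too few reads for a test. The minimum of reads in the scrambled group is part of how members were chosen, so the split of these between the groups is not a measure of depth.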
